A study of Mus musculus with 6 samples.

Results

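Chondroitin sulfate synthesis was examined through 10 genes listed by name among 38924 genes in the count files. They are the polymerase genes Chsy1, Chsy3, Chpf and Chpf2, the chain initiation genes Csgalnact1 and Csgalnact2, the sulfotransferase gene Chst11, the sulfate transporter gene Slc26a2 and the sulfate activation genes Papss1 and Papss2. All 10 passed the filter on low counts, so 13333 tested genes include every one of them. RNA came from cartilage of the anterior nasal septum, which stands in the midline of the nose, laser captured from frozen heads of C57BL/6 mouse embryos at embryonic day 14.5, and libraries from 3 wild-type (WT) and 3 mutant mice were sequenced. The mutant mice, here called Apert, carry the genotype Fgfr2+/S252W; EIIA-Cre: they are heterozygous for a gain-of-function substitution in fibroblast growth factor receptor 2 that causes Apert syndrome, a craniosynostosis syndrome, in people. EIIA-Cre is a transgene that drives Cre recombinase in the early embryo, so the mutation is not limited to cartilage. Whether the WT embryos carried the Cre transgene, and which embryos were littermates, is not given in the sources used here. The question put to these libraries is which transcript levels the mutation changes in this cartilage.

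Chondroitin sulfate is a long chain of alternating glucuronic acid and N-acetylgalactosamine that is built in the Golgi on core proteins such as aggrecan and then sulfated. Its negative charge draws water into cartilage and lets the tissue resist compression. Csgalnact1 and Csgalnact2 add the first N-acetylgalactosamine to the linkage sugars and commit the chain to chondroitin, and Chsy1, Chsy3, Chpf and Chpf2 lengthen it as complexes. Chst11 places sulfate on carbon 4 of N-acetylgalactosamine. Sulfate enters chondrocytes through Slc26a2, and the enzymes made from Papss1 and Papss2 turn it into PAPS, the activated sulfate that sulfotransferases use. Loss of SLC26A2 or PAPSS2 function causes skeletal dysplasia in people, and in mice loss of Chst11 or Csgalnact1 disturbs the growth plate.

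Papss2 stood highest among the 10 genes by a wide margin. To compare genes, counts were divided by exon length and scaled to a fixed sum per library, the unit known as TPM. In WT cartilage Papss2 reached 1142 ± 89.2 TPM (SD, n = 3), which placed it at rank 28 of all genes in the files. Chst11 followed with 212 ± 50.9 TPM, Slc26a2 with 157 ± 12.0, Chsy1 with 90.0 ± 13.3, Csgalnact1 with 84.4 ± 17.4 and Papss1 with 55.7 ± 5.93 (SD, n = 3 each). A second tier lay far below: Chpf was at 12.5 ± 1.80 TPM, Chsy3 at 9.02 ± 1.59, Chpf2 at 8.36 ± 0.542 and Csgalnact2 at 5.30 ± 1.22 (SD, n = 3 each). The ranges of the WT libraries overlapped for Chst11 and Slc26a2, for Chsy1 and Csgalnact1, and for Chsy3 and Chpf2, so the order within these pairs is not beyond the spread. They did not overlap between the other neighbours. Most TPM of the sulfate activation pair, of the initiation pair and of the polymerase genes thus came from 1 gene each. Papss2 gave 95.3% ± 0.458 of the TPM of Papss1 and Papss2, Csgalnact1 gave 94.1% ± 0.715 of the initiation pair, and Chsy1 gave 74.8% ± 2.97 of the 4 polymerase genes in WT (SD, n = 3 each). In Apert cartilage the shares were 95.6% ± 0.430, 93.2% ± 0.692 and 73.6% ± 6.87 (SD, n = 3 each), all overlapping those of WT. Over exon length not shared with other genes, described next, the share of Chsy1 was 82.4% ± 2.22 in WT and 80.7% ± 5.94 in Apert (SD, n = 3 each).

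**Figure D1:**
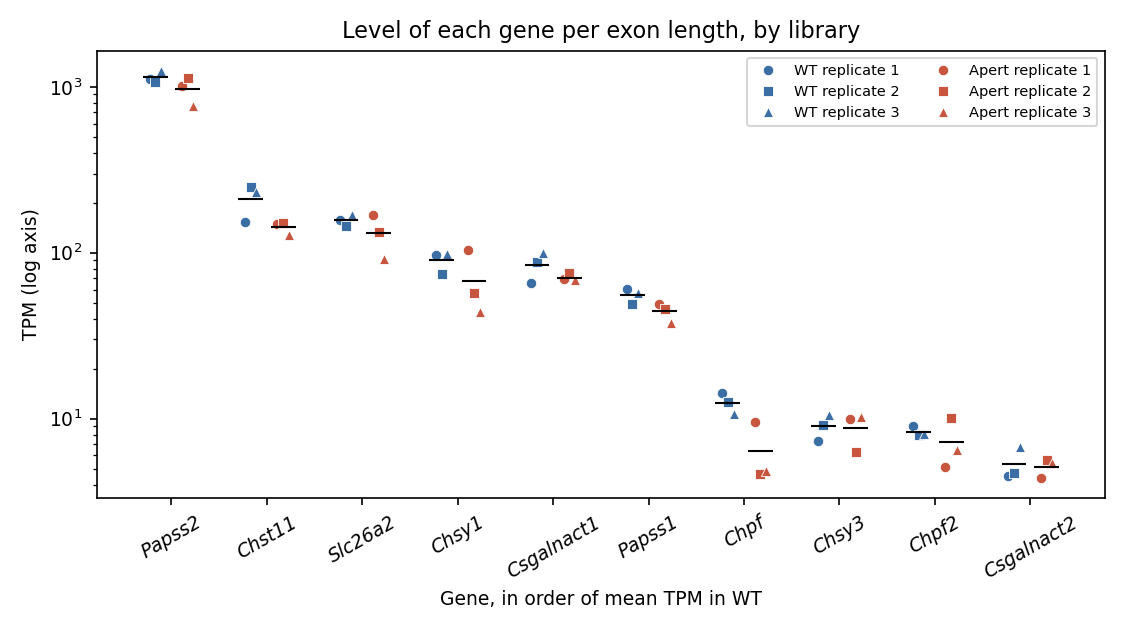
TPM of the 10 genes on a log axis in each of the 6 libraries, with WT in blue, Apert in red, a marker shape for each replicate number and a black bar at the group mean. Papss2 lies above every other gene in all 6 libraries, between 764 and 1243 TPM, and 4 genes lie below 15 TPM throughout.

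Exons shared with other genes affect 2 of these levels. The counting left fragments over shared exons unassigned, and 48.9% of the exon bases of Chsy1 are shared with the opposite-strand gene Gm26827, which received 0 counts in each library. Likewise 45.9% of Chpf2 is shared, all of it with the opposite-strand gene Smarcd3. Over unshared length, the WT level was 176 ± 26.0 TPM for Chsy1 and 15.5 ± 1.003 TPM for Chpf2 (SD, n = 3 each), which puts Chsy1 in the range of Slc26a2 and Chpf2 above Chpf. Chpf shares 1.54% of its exon bases with Obsl1, and the other 7 genes share none. Comparisons of 1 gene between genotypes use the same exons in every library.

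The start regions of the PAPS synthase pair are printed because their levels differ most within a pair, with 20.5 times more Papss2 than Papss1 per length in WT. Each is the 250 bases before the RefSeq start (GRCm38.p6) that coincides with the gene's first base in the count files, 5′ to 3′, and capitals mark GC boxes (GGGCGG or CCGCCC) and CCAAT boxes (CCAAT or ATTGG).
Papss1, chr3:131564518-131564767, plus strand: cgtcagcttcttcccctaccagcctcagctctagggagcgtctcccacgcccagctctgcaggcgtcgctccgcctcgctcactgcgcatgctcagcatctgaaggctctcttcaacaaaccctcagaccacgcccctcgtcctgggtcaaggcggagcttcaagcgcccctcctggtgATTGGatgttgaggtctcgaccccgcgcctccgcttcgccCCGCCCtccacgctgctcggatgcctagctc
Papss2, chr19:32619755-32620004, plus strand: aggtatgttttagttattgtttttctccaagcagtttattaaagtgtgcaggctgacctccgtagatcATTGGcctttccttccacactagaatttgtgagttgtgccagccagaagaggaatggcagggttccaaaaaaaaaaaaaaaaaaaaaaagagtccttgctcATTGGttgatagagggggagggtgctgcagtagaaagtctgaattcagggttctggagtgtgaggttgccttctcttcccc
The Papss1 region is GC-rich, at 65.2%, with 20 CpG sites, 1 GC box and 1 CCAAT box. The Papss2 region is 43.2% GC with 1 CpG site, no GC box and 2 CCAAT boxes. Of the same windows of all 32851 RefSeq starts, 32.7% hold a GC box and 33.8% a CCAAT box on either strand, 18.8% have at most 1 CpG site, and the median GC content is 52.4%. Neither region holds the SOX core letters ACAAAG or CTTTGT (16.5% of all) or the TATA box letters TATAAA or TTTATA (12.4% of all). In the other 5 genes with a start in the table, GC content ran from 58.8% for Chpf2 to 70.4% for Chpf, with 12 to 30 CpG sites. A match describes letters only and no binding was measured.

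The libraries held 6760510 to 10834744 counts. Chondrocyte genes were abundant, with Col2a1 at 7079 TPM, Hapln1 at 2451 TPM and Col9a3 at 1884 TPM as WT means. Here CPM are counts relative to the library total after scaling by trimmed mean of M values (TMM). Not all genes of other tissues were low. Per library, the sum of CPM ran from 3366 to 5069 for perichondrium and fibrous mesenchyme genes and from 276 to 433 for glia genes. It ran from 193 to 266 for neuron genes, nearly all of it from Ncam1, and from 50.3 to 92.6 for erythroid genes. It was at most 4.37 for endothelium genes and at most 14.7 for macrophage and leukocyte genes. Summed CPM were at most 2.99 over 8 epithelium genes and at most 1.62 over 8 skeletal muscle genes, and ran from 73.9 to 96.9 over 7 osteoblast genes, nearly all of it from Runx2, which cartilage also expresses. Of these lists 2 epithelium genes (Cdh1, Krt14), 3 muscle genes (Myod1, Myog, Ckm) and 2 osteoblast genes (Ibsp, Dmp1) were at 0 counts in every library (a count of 0 allows up to 3 in each), and the others had counts in at least 1. The mutated gene, Fgfr2, had a mean of 630.1 ± 61.7 CPM in WT libraries and of 519 ± 58.9 CPM in Apert libraries (SD, n = 3 each); its difference did not pass (edgeR, adjusted p = 0.461). The substitution removes no exon, and gene counts cannot show which allele a fragment came from. Mitochondrially encoded genes took 28.8% to 30.2% of counts in WT libraries and 34.3% to 40.4% in Apert libraries. The mean GC content of nuclear transcripts, weighted by CPM, was 47.9% to 49.2% in WT and 47.5% to 47.8% in Apert. Neither measure overlapped between the genotypes, and their part in the results below was not tested except where a GC value is given.

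Expression of none of the 10 genes differed between the genotypes past the threshold, an adjusted p of 0.05 over all tested genes in edgeR's quasi-likelihood test. Across all tested genes 0.45% passed, 0.398% higher (53 genes) and 0.0525% lower (7 genes) in Apert. That balance depends on the scale, since library totals alone gave 17 higher and 24 lower. At an unadjusted p below 0.05, 2 of the 10 genes, Chpf and Chst11, were lower in Apert and none was higher, while 5.01% of all tested genes were lower and 6.35% higher at that level. DESeq2 and limma-voom also called none of the 10 and gave 2 each at that unadjusted level. The log2 fold change was negative for 8 of 10 genes, against 48.9% of all tested genes, and the median was -0.10 against 0.01 for all tested genes. With library totals alone as the scale, the median of all genes moved to -0.14, that of the 10 to -0.25, and the sign was negative for all 10. The libraries of the genotypes overlapped in CPM for every one of the 10 genes. Of all tested genes, 7.7% lay wholly lower and 8.92% wholly higher in Apert in CPM. The overlap also depends on the scale. In TPM, which carry no TMM scaling, all Apert libraries lay below all WT libraries for Chpf, Chst11 and Papss1. Their highest Apert values were 9.58, 151 and 48.8 TPM, against lowest WT values of 10.7, 154 and 49.1 TPM. The share of all tested genes without overlap in TPM was not computed, so these genes cannot be set against it. Mitochondrially encoded genes are part of the fixed sum of TPM. They took 28.8% to 30.2% of counts in WT and 34.3% to 40.4% in Apert libraries. The part of this in the lower TPM of Apert libraries was not tested. In bulk RNA a smaller share of cells that express a gene and less RNA per cell cannot be told apart.

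**Figure D2:**
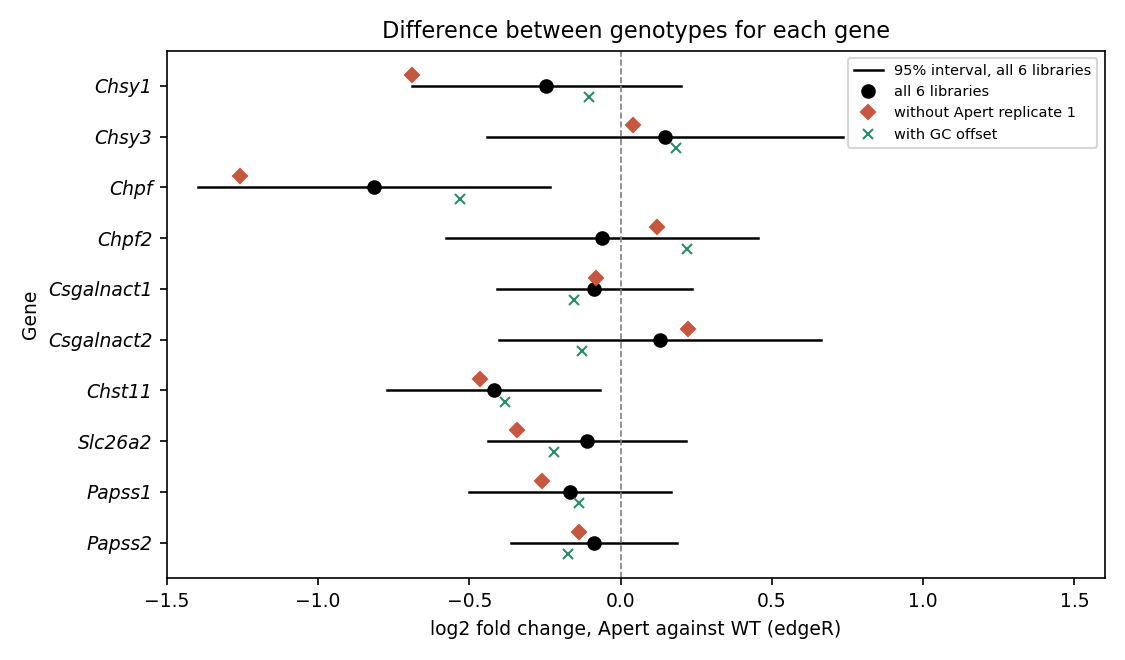
Log2 fold change of each gene, Apert against WT, with its 95% interval from edgeR (black), the value without Apert replicate 1 (red diamonds) and the value after correction for GC content (green crosses). The intervals of Chpf and Chst11 lie below 0 before adjustment for multiple tests, and without Apert replicate 1 Chpf moves from -0.82 to -1.26 and Chsy1 from -0.25 to -0.69.

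Among the polymerase genes, Chpf, which encodes a partner needed for chain lengthening, had the largest difference of the 10. Chpf (ENSMUSG00000032997) lies on chromosome 1 (minus strand), from 75474569 to 75479471 (mm10). It was measured at 26.3, 25.4 and 18.2 CPM in WT replicates 1 to 3 and at 19.3, 9.12 and 10.9 CPM in Apert replicates 1 to 3. Apert replicates 2 and 3 lay below all WT libraries, while Apert replicate 1 lay above the lowest WT library. In edgeR's fit this was a log2 fold change of -0.82 (standard error 0.28, unadjusted p = 0.0087, adjusted p = 0.251), a fold of 0.568 with a 95% interval of 0.379 to 0.850. Without Apert replicate 1 Chpf was called lower, at -1.26 (edgeR, adjusted p = 0.0226). Chpf transcripts are GC-rich, at 58.0%, and after correction for GC content, by a smooth curve of each library's deviation on the GC content of transcripts, the log2 fold change was -0.53 (edgeR, adjusted p = 0.717). At that GC content the mean curve of Apert lay at -0.27 in log2 relative to WT. The curve takes out any trend with GC content, and a technical trend and one of genotype cannot be told apart here.

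Chsy1, the most abundant polymerase gene, split the Apert libraries. Chsy1 (ENSMUSG00000032640) lies on chromosome 7 (plus strand), from 66109515 to 66173789 (mm10). WT replicates 1 to 3 had 184, 156 and 175 CPM, and Apert replicates 1 to 3 had 216, 116 and 101 CPM. Apert replicate 1 was thus above every WT library and the other 2 were below every WT library. The spread was 43.2% of the mean in Apert and 8.39% in WT, where counting alone gives 3.19% and 2.38%. Over all 6 libraries the log2 fold change was -0.25 (standard error 0.21, edgeR adjusted p = 0.712), a fold of 0.843 with a 95% interval of 0.619 to 1.15. Without Apert replicate 1 it was -0.69 and called lower (edgeR, adjusted p = 0.0303), without Apert replicate 3 it was -0.05, and without Apert replicate 2 it was -0.11. After GC correction it was -0.10.

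Chsy1 and Chpf were the 2 genes of the 10 that were called once Apert replicate 1 was left out, when 1.65% of 13848 tested genes were called and 0.794% were called lower. With the GC correction and without that library together, none of the 10 was called and 0.376% of tested genes were. Chsy1 then had a log2 fold change of -0.57 (edgeR, adjusted p = 0.113) and Chpf of -0.96 (edgeR, adjusted p = 0.106). Among the Apert libraries, replicate 1 had the lowest mitochondrial share, 34.3%, the highest GC mean, 47.8%, and the largest total, 10527915 counts. Its part in the difference from replicates 2 and 3 was not tested.

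The other polymerase genes were weakly expressed and near equal in the group means. Chsy3, a polymerase like Chsy1, lies on chromosome 18 (plus strand), from 59175401 to 59410446 (mm10, ENSMUSG00000058152). It was at 9.88, 13.5 and 13.1 CPM in WT and 14.7, 8.98 and 16.7 CPM in Apert replicates 1 to 3, so the highest and the lowest library were both Apert. Its log2 fold change, 0.15 (standard error 0.28), was a fold of 1.11 with a 95% interval of 0.735 to 1.66. The lowest count of any of the 10 genes was the 66 of Chsy3 in Apert replicate 2, with an exact Poisson 95% interval of 51.0 to 84.0 that covers counting error only. Chpf2, a close relative of Chpf on chromosome 5 (plus strand), from 24586741 to 24594395 (mm10, ENSMUSG00000038181), was at 22.1, 21.5 and 18.5 CPM in WT and 13.8, 26.7 and 19.3 CPM in Apert replicates 1 to 3. Here Apert replicate 1 was the lowest library and Apert replicate 2 the highest. For Chpf2 the log2 fold change was -0.06 (standard error 0.25, fold 0.958, 95% interval 0.669 to 1.37). It was positive after GC correction, at 0.22, and without Apert replicate 1, at 0.12.

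**Figure D3:**
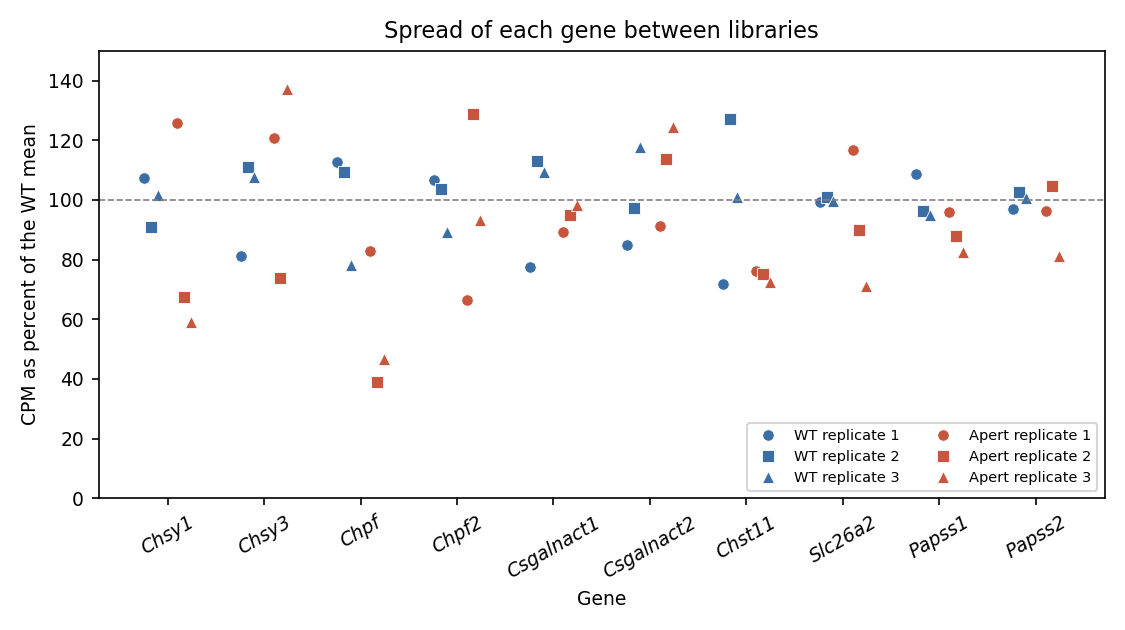
CPM of each gene as a percent of its WT mean in the 6 libraries, with WT in blue, Apert in red and a marker shape for each replicate number. For Chsy1 and Slc26a2 Apert replicate 1 lies above all WT libraries and the other 2 Apert libraries lie below them, while the 3 Apert libraries of Chst11 lie together between 72.7% and 76.2%.

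Neither chain initiation gene passed the test. Csgalnact1, on chromosome 8 (minus strand), from 68356781 to 68735146 (mm10, ENSMUSG00000036356), was at 144, 209 and 203 CPM in WT and 165, 176 and 182 CPM in Apert replicates 1 to 3. All 3 Apert libraries fell inside the WT range. That gave a log2 fold change of -0.09 (standard error 0.15, edgeR adjusted p = 0.879) and a fold of 0.941 with a 95% interval of 0.752 to 1.18. Csgalnact2, on chromosome 6 (minus strand), from 118107452 to 118139140 (mm10, ENSMUSG00000042042), was at 11.2, 12.8 and 15.5 CPM in WT and 12.0, 15.0 and 16.4 CPM in Apert replicates 1 to 3. The groups overlapped almost fully. Its log2 fold change was 0.13 (standard error 0.25, fold 1.10, 95% interval 0.757 to 1.58), and it was -0.13 after GC correction, its transcripts being AT-rich at 37.4% GC.

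Chst11, the 4-O-sulfotransferase gene, was the other gene below an unadjusted p of 0.05. Chst11 (ENSMUSG00000034612) lies on chromosome 10 (plus strand), from 82985498 to 83195900 (mm10). It was measured at 390.1, 690.2 and 547 CPM in WT replicates 1 to 3 and at 413, 409 and 394 CPM in Apert replicates 1 to 3. The Apert libraries lay together, all above WT replicate 1 and below WT replicates 2 and 3. The spread was 27.7% of the mean in WT and 2.46% in Apert, where counting alone gives 1.36% and 1.80%. On the log2 scale the fold change was -0.42 (standard error 0.17, edgeR unadjusted p = 0.0218, adjusted p = 0.341), a fold of 0.747 with a 95% interval of 0.586 to 0.953. With WT replicate 2 left out it was -0.21, and with WT replicate 1 left out -0.61 (edgeR, adjusted p = 0.839 and 0.187), so the size rests on which WT library is kept. After GC correction it was -0.38. Acan, the gene of the main chondroitin sulfate core protein, was also highest in WT replicate 2, at 1582 CPM, and lay between 700.3 and 981 CPM in the other 5 libraries.

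Sulfate uptake and activation transcripts were high in both genotypes. Slc26a2, on chromosome 18 (minus strand), from 61192919 to 61211612 (mm10, ENSMUSG00000034320), was at 887, 902 and 889 CPM in WT replicates 1 to 3, a spread of 0.938% of the mean where counting alone gives 1.04%. In Apert replicates 1 to 3 it was at 1042, 803 and 636 CPM, a spread of 24.7%. As for Chsy1, Apert replicate 1 was above all WT libraries and the other 2 were below them. For Slc26a2 the log2 fold change was -0.11 (standard error 0.16, edgeR adjusted p = 0.841), a fold of 0.926 with a 95% interval of 0.738 to 1.16. It was -0.34 without Apert replicate 1 and 0.04 without Apert replicate 3, and was called in neither fit.

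Papss2, on chromosome 19 (plus strand), from 32620005 to 32667187 (mm10, ENSMUSG00000024899), was at 1847, 1958 and 1918 CPM in WT and 1837, 1995 and 1547 CPM in Apert replicates 1 to 3. Apert replicate 3 was the lowest library and Apert replicate 2 the highest. Its log2 fold change was -0.09 (standard error 0.13, edgeR adjusted p = 0.847). The 95% interval of the fold, 0.777 to 1.14, is the narrowest of the 10 genes. Papss1, the less abundant synthase gene, lies on chromosome 3 (plus strand), from 131564768 to 131643670 (mm10, ENSMUSG00000028032). It was at 72.2, 64.0 and 63.2 CPM in WT and 63.8, 58.5 and 54.9 CPM in Apert replicates 1 to 3, with Apert replicates 2 and 3 below all WT libraries and Apert replicate 1 between the lowest pair of them. For Papss1 the log2 fold change was -0.17 (standard error 0.16, edgeR adjusted p = 0.735, fold 0.889, 95% interval 0.706 to 1.12).

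The balance within enzyme pairs was compared as a ratio of TPM inside each library, which does not depend on how libraries are scaled. The 4 ratios of paired genes overlapped between the genotypes, and with 3 against 3 libraries the smallest possible p of the two-sided exact permutation test is 0.1. Chsy1 exceeded Chsy3 by 13.1, 8.13 and 9.38 times in WT and 10.4, 9.07 and 4.27 times in the Apert replicates in the same order (two-sided exact permutation p = 0.5). The Chpf to Chpf2 ratio was 1.59, 1.58 and 1.31 in WT and 1.87, 0.457 and 0.752 in the Apert replicates (exact permutation p = 0.4). Over unshared exon length the Chpf to Chpf2 ratio was 0.872, 0.869 and 0.721 in WT and 1.03, 0.251 and 0.413 in Apert. Which of the genes is higher in WT thus depends on the length used, while each Apert library kept its order on both lengths. Apert replicates 2 and 3 lay below all WT libraries and Apert replicate 1 above them. A change of length multiplies the ratio by the same factor in every library, so this order is the same on either length by construction. The Chsy1 to Chsy3 ratio over unshared length was 25.7, 15.9 and 18.3 in WT and 20.3, 17.7 and 8.36 in Apert. Csgalnact1 exceeded Csgalnact2 by 14.6, 18.6 and 14.9 times in WT and 15.7, 13.4 and 12.7 times in Apert (exact permutation p = 0.3). The Papss1 to Papss2 ratio was 0.0547, 0.0457 and 0.0461 in WT and 0.0485, 0.0410 and 0.0497 in Apert (exact permutation p = 0.6). After Benjamini-Hochberg adjustment over the 4 ratios every exact permutation p was 0.6.

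Other genes of the route to chondroitin sulfate were read from lists written from general knowledge, and none was called outside the heparan sulfate list. Of 7 genes that build or modify the linkage sugars on which both chondroitin and heparan sulfate grow, all 7 were tested, 0 were called and the median log2 fold change was -0.03. Fam20b, the xylose kinase, was at -0.28 and Pxylp1, the xylose phosphatase, at -0.31, while B3gat3 was at 0.34 and B4galt7 at -0.29. Of 9 other sulfation and epimerisation genes 7 were tested and 0 called (median -0.11), with the dermatan epimerase-like gene Dsel at 0.25, the sulfotransferase genes Chst15 at -0.26 and Chst12 at -0.35, and the 6-O-sulfotransferase gene Chst3 at 0.17. Chst12, a 4-O-sulfotransferase gene like Chst11, was at 6.38 TPM in WT against the 212 TPM of Chst11.

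Among 6 other sulfate and PAPS handling genes 0 were called, and the median was 0.12. Slc35b2, which carries PAPS into the Golgi, stood lowest, at 14.2, 16.4 and 13.1 CPM in WT and 9.12, 6.53 and 7.78 CPM in Apert replicates 1 to 3. Its Apert libraries lay below all WT libraries, but the gene did not pass (log2 fold change -0.89, standard error 0.27, edgeR adjusted p = 0.178). Impad1, the Golgi phosphatase that clears the spent PAPS product, was at 0.25, the transporter gene Slc26a11 at 0.35 and Bpnt1 at 0.43. All 12 genes of nucleotide sugar supply were tested and 0 were called (median 0.08). The nucleotide sugar transporter gene Slc35d1 was at -0.33 (edgeR, unadjusted p = 0.0488), the glucosamine pathway gene Gfpt1 at -0.25, Slc35d2 at -1.13 with 1.79 CPM in WT, and Ugdh, which makes UDP-glucuronic acid, at 0.20.

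The list for chondroitin sulfate core proteins held 12 genes and took in every chain gene of collagen IX, whether or not that chain itself carries chondroitin sulfate. All 12 were tested, 0 were called and the median was -0.22. Biglycan (Bgn) was at 0.44 with all Apert libraries higher in CPM. Cspg4 was at -0.53 and the collagen gene Col9a2 at -0.43, each with all Apert libraries lower. Of all tested genes 8.92% lay wholly higher and 7.7% wholly lower. Acan was at -0.48 with overlap. The adjusted p of Bgn, Cspg4, Acan and Col9a2 were 0.234, 0.254, 0.322 and 0.344 (edgeR). Of 11 degradation genes 0 were called (median -0.24), with the hyaluronidase gene Hyal2 at -0.88, Hexa at -0.53 and the iduronidase gene Idua at -0.30. In the heparan sulfate list, which uses the same linkage sugars and PAPS, 13 of 17 genes were tested, 1 fell (0.0525% of all tested genes did), 0 rose and 12 did not pass (median -0.38). The gene that fell was the polymerase gene Ext2, at 192, 150 and 124 CPM in WT and 84.3, 80.0 and 96.9 CPM in Apert replicates 1 to 3, with no overlap (log2 fold change -0.83, standard error 0.17, edgeR adjusted p = 0.0363). Ext2 was called in 1 of the 6 fits that leave out a library, the one without Apert replicate 1, with log2 fold changes from -0.97 to -0.65 and adjusted p from 0.0237 to 0.250 (edgeR). After GC correction of all 6 libraries its adjusted p was 0.153 (edgeR). Ndst1 was at -0.62, Hs3st3b1 at -0.42 and Extl3 at -0.46.

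**Figure D4:**
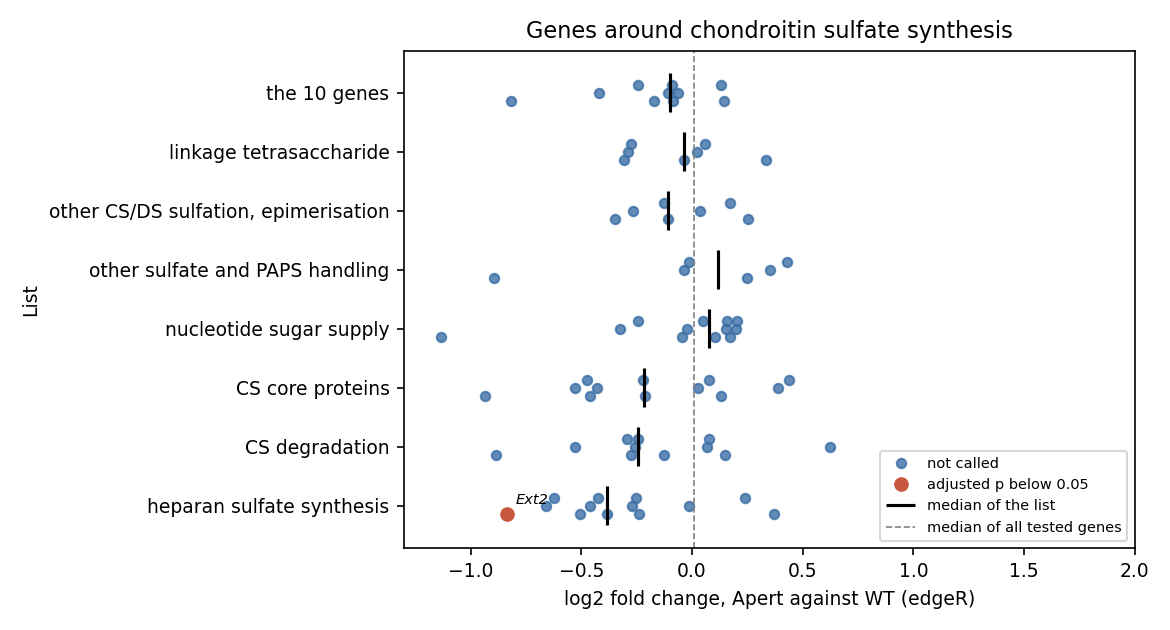
Log2 fold change, Apert against WT, of each tested gene in 8 lists (CS, chondroitin sulfate, and DS, dermatan sulfate), with the list median as a black bar and the median of all tested genes as a dashed line. Ext2 in the heparan sulfate list is the 1 gene past the threshold, and the 10 genes of chondroitin sulfate synthesis lie between -0.82 and 0.15.

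Markers of the tissue moved with the genotypes in part. Summed over 14 perichondrium and fibrous mesenchyme genes, CPM ran from 3366 to 3892 in WT and from 4389 to 5069 in Apert libraries, with no overlap. Of the 12 tested genes 2 rose, the collagen gene Col3a1 and the small proteoglycan gene Ogn (edgeR, adjusted p = 0.0322 and 0.0363), where 0.398% of all tested genes did. With a library left out each was called only without Apert replicate 1, and neither was called after GC correction of all 6 libraries or with library totals alone, while the log2 fold changes with a library left out ran from 0.59 to 0.76 for Col3a1 and from 0.73 to 1.05 for Ogn. Summed over 15 chondrocyte genes, CPM ran from 38408 to 49471 in WT and from 39567 to 42921 in Apert, with overlap and 0 of 15 called. Col2a1 alone held 16646 to 24543 of that sum in WT and 16336 to 18189 in Apert. By gene, 11 of the 15 log2 fold changes were negative, against 48.9% of all tested genes, and the median was -0.21. In CPM 3 of them lay wholly lower and 1 wholly higher in Apert, against 7.7% and 8.92% of all tested genes. Over 7 glia genes summed CPM ran from 364 to 433 in WT and from 276 to 328 in Apert, with no overlap and 0 of 6 tested genes called. Foxd3, a defining gene of early glia, was at 0 counts throughout. The part of these shifts in the values of the 10 genes was not tested.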

How the data were processed

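RNA-seq counts were analysed for 6 libraries, 1 per mouse, 3 WT and 3 Apert. Each was made from 15 ng of RNA amplified with the NuGEN Ovation system and tagged with Nextera XT, and read as 100 bp pairs, per the labels' protocols. The authors counted fragments per gene over exons with featureCounts 1.4.4, without regard to strand, on Ensembl release 75 models of GRCm38, per the file headers, so the deposited values are raw counts. Cutadapt, STAR 2.5.2b and mm10 are named in the submitters' processing notes. The header options neither turn on multiply mapped reads nor assign a fragment to overlapping genes. Amplification from nanogram amounts can distort counts by GC content and length, and no molecular identifiers are described, so intervals for single counts cover counting error only.

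Symbols were matched by gene identifier for 37607 of 38924 genes. The 1317 others held 0.168% to 0.205% of counts and stayed in the totals. Genotype was tested in R 4.3.3 with edgeR 4.0.16 (filterByExpr, TMM, glmQLFit, glmQLFTest) on all 6 libraries, with Benjamini-Hochberg adjustment over 13333 genes. Intervals of fold changes come from the F statistic. TPM were computed from counts and the exon length in the files, without TMM. They serve to compare genes within libraries, except where overlap of the genotypes in TPM is stated. Alternatives were other scalings, filters, DESeq2 1.42.0, limma-voom (limma 3.58.1), the replicate number as a block, thinned counts, removal of mitochondrial genes, each library left out, and a GC correction (a smooth curve of log2 deviation on the GC content of the longest GENCODE M21 transcript, with mgcv 1.9.3, used as an offset in the fit). The code of the fits was run on simulated counts with known fold changes, with limits to pass set for the main edgeR fit only. The simulated counts held no GC, mitochondrial or replicate effect, so they cannot test the GC correction or the block. The 10 genes and the lists were chosen with earlier results of these data known. The text names all 10, Fgfr2, called genes and up to 4 genes with the smallest p of each list, and up to 3 of the highest marker genes. The markers at 0 counts, Chst12's level beside Chst11, Slc35b2's library values, Runx2, Gm26827, Smarcd3 and Obsl1 were named after their values were seen. RefSeq start regions matched 7 of the 10 genes. A gene of the degradation list that the rule for named genes would name is not reported here.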

Additional observations from a re-analysis of the deposited data

How the results depend on the processing

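With the RLE, upper-quartile and total-count scalings, both other filters, DESeq2, limma-voom, the block, GC correction, mitochondrial removal and thinning, 0 of the 10 genes were called, and each library left out gave 0 to 2 (2 without Apert replicate 1). Their median log2 fold change, -0.10, was -0.25 with library totals alone, where the median of all genes moved from 0.01 to -0.14, -0.055 to -0.20 with a library left out, and -0.23 without Apert replicate 1 with GC correction, a pair of choices added after seeing the data. The 60 genes called overall became 247 with no filter, 204 with DESeq2, 5 with GC correction and 0 (without WT replicate 3, with 1376 at an unadjusted edgeR p below 0.05) to 229 (without Apert replicate 1) with a library left out. The genotype difference changed sign with library totals for Chsy3 (-0.014) and Csgalnact2 (-0.027), and with GC correction for Chpf2 (0.22) and Csgalnact2 (-0.13). With GC correction and without Apert replicate 1 they were 0.42 and -0.039. With a library left out the ranges that crossed 0 were -0.035 to 0.36 for Chsy3, -0.35 to 0.12 for Chpf2, -0.24 to 0.0085 for Csgalnact1 and -0.34 to 0.040 for Slc26a2, and the difference of the log2 Papss1 to Papss2 ratio, -0.07, ran from -0.12 to 0.013. The cause was not tested. With a library left out, Ext2, Col3a1 and Ogn were called in 1 of 6 fits each. Equal replicate numbers were not taken as pairs: same-numbered libraries correlated at 0.19, 0.02 and 0.09 in their deviations from group means, and WT replicate 2 correlated best with Apert replicate 3. With the replicate block 172 genes were called overall and 0 of the 10, the median was -0.12, and with the block and GC correction together Chpf2 was at 0.18 and Csgalnact2 at -0.13. In order of level in WT, CPM in place of TPM put Slc26a2 at 2, Chst11 at 3, Csgalnact1 at 4, Chsy1 at 5, Chpf2 at 8, Csgalnact2 at 9 and Chsy3 at 10. Unshared exon length, added after seeing the data, put Chsy1 at 3, Slc26a2 at 4, Chpf2 at 7, Chpf at 8 and Chsy3 at 9. Chsy3 rests on 66 to 148 counts a library.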
